A study of Mus musculus with 15 samples.

Results

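Hox genes were followed in microvascular endothelial cells of the mouse brain, heart and liver. A gene was included when its single symbol in the array's platform annotation was Hoxa, Hoxb, Hoxc or Hoxd followed by a number. This rule, which used no measured value, gave 37 of the 19938 genes measured, and each of the 37 had 1 probe set. The family itself was chosen with earlier results of these data known. Hoxb8 was read only by a probe set that it shares with Hoxb7 and is not among them.

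All 3 groups came from Tie2-GFP mice on the FVB background, aged 8 to 12 weeks, in equal numbers of males and females. Green fluorescent protein is driven in them by the Tie2 promoter, that of the receptor gene Tek. Sorting for this protein enriches cells in which the promoter is active, and markers of other cells are given below. GFP-positive cells were sorted from digested tissue after the visible large vessels had been removed. There were 5 samples per tissue, and a sample pooled RNA of 6 mice for brain, 4 for heart and 2 for liver. No group was treated. Brain was digested with collagenase and DNase and then briefly with trypsin, heart with collagenase, and liver with dispase at room temperature followed by a Percoll gradient, so tissue, digestion and pool size cannot be told apart. The labels do not say whether pools shared mice, and p-values therefore measure the spread between these 15 samples. The design compares the 3 endothelia to find genes enriched in 1 of them.

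Hox genes encode homeodomain transcription factors that give cells of the embryo their position along the head-to-tail axis. In mammals they lie in 4 clusters, Hoxa to Hoxd, and the number of a gene names its paralogue group, so that genes with the same number in different clusters descend from 1 ancestral gene. Low numbers are switched on first and furthest toward the head, high numbers later and further toward the tail. Forebrain and midbrain form ahead of the Hox domain. Adult cells often keep part of the Hox pattern of the region they come from, and several Hox factors are described as regulators of endothelial quiescence and sprouting.

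Values are log2 expression values made by RMA. A difference of 1 is a 2-fold difference, and RMA compresses large differences. A gene is called higher or lower when its p-value from limma is under 0.05 after Benjamini-Hochberg adjustment for all 19938 genes. The arrays had medians of 5.98 to 6.11, and arrays of the same tissue correlated across genes at 0.978 to 0.993. The endothelial identity of the samples was checked on 15 pan-endothelial genes. All 15 lay above the low-signal reference in each tissue, with list means per array of 10.22 to 10.57 in brain, 10.13 to 10.24 in heart and 10.05 to 10.28 in liver. The low-signal reference is the 95th percentile of 1015 olfactory receptor genes, 5.66 in brain, 5.77 in heart and 5.64 in liver. Probe sets bind their targets with different strength, so the reference is a rough guide and the levels of different genes are not ranked against each other. Where the lower tissue of a comparison lay below its reference, the fold is given as a lower bound, with the reference in place of its mean, and where both lay below it no fold is given. Hox paralogues resemble each other, and several overlap a neighbouring or antisense transcript, so that a probe set may also bind RNA of a relative or neighbour.

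Most Hox genes showed low signal in all 3 endothelia. Of the 37, 24 lay below the low-signal reference in every tissue, and 7, 11 and 13 lay above it in brain, heart and liver. Of all genes, 59% in brain, 57.6% in heart and 58.8% in liver lay above it. Those above it in all 3 tissues were Hoxa4, Hoxa6, Hoxb1, Hoxb3, Hoxb4, Hoxb7 and Hoxd9. Hoxa5, Hoxa7, Hoxb2 and Hoxb5 lay above it in heart and liver, and Hoxa2 and Hoxd11 in liver alone. No Hoxc gene lay above it in any tissue. The count depends on the reference: with the 99th percentile it was 2, 3 and 8, with vomeronasal and taste receptor genes in place of olfactory receptors 21, 22 and 24, and with every array of the tissue required to pass 5, 7 and 10.

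**Figure D1:**
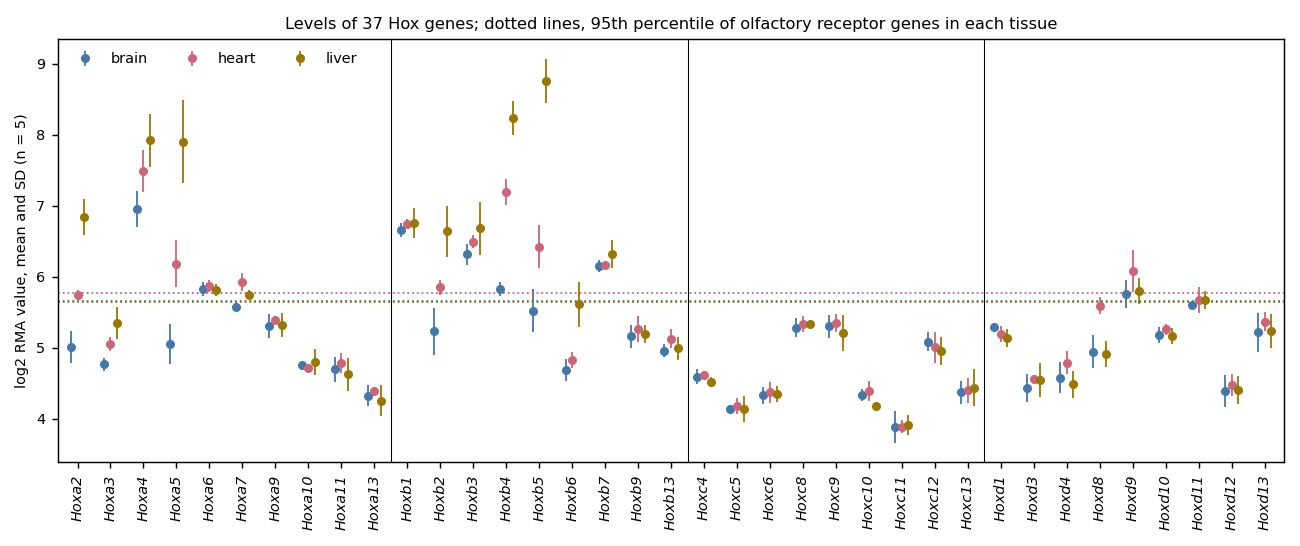
Level of each of the 37 Hox genes, in cluster order, as the mean of 5 arrays with its SD in brain, heart and liver on the log2 RMA scale; dotted lines mark the low-signal reference of each tissue (5.66, 5.77 and 5.64). The 3 tissues separate for a run of Hoxa and Hoxb genes with low numbers, with Hoxb5 at 5.52, 6.42 and 8.76, and lie together for nearly all Hoxc and Hoxd genes.

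A set of Hoxa and Hoxb genes with low paralogue numbers was lowest in brain, intermediate in heart and highest in liver endothelium. In the comparison of liver with brain, 8 of 37 Hox genes (21.6%) were higher in liver, against a background of 14.0% of all genes, and none was lower, against 11.1%. None of the 37 was lower in limma at an unadjusted p under 0.05 either. In the comparison of heart with brain, 8 of 37 (21.6%) were higher in heart, against 7.11% of all genes, and none was lower, against 8.29%. Again none was lower in limma at an unadjusted p under 0.05. Only 7 of the 37 lay above the low-signal reference in brain, beside 59% of all genes. A gene already dim in brain has little room to read lower elsewhere, so the absence of lower genes is limited by low signal. In the comparison of liver with heart, 7 of 37 (18.9%) were higher in liver, against 16.3%, which is near the background, and 2 (5.41%) were lower, against 11.5%. The median difference over the 37 genes was 0.03 for liver minus brain, 0.09 for heart minus brain and -0.04 for liver minus heart, beside 0.00, 0.03 and -0.03 over all genes. The family as a whole was thus close to the median gene, and the differences lay in 11 named members. The 3 comparisons share arrays and are not independent of each other.

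The order of brain under heart under liver held for 5 Hox genes with all 3 differences called, namely Hoxa2, Hoxa5, Hoxb2, Hoxb4 and Hoxb5. That is 13.5% of the Hox genes, against 1.19% of all genes. For 4 of them, Hoxa2, Hoxa5, Hoxb4 and Hoxb5, no array of one tissue overlapped the next tissue in that order (10.8%, against 0.833% of all genes). The same 4 genes were enriched in liver, meaning called higher than brain and than heart with each log2 difference at least 1 (10.8%, against 2.69% of all genes). Hoxa5 and Hoxb4 were also depleted in brain by the mirrored rule, Hoxa5 with a brain signal below the reference. That is 2 of 37 Hox genes, against 130 of all 19938 genes. The order was picked out after the values had been seen.

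By position in the clusters, 5 of 10 Hoxa genes, 4 of 9 Hoxb genes, 1 of 9 Hoxc genes and 1 of 9 Hoxd genes had a call in at least 1 comparison (50.0%, 44.4%, 11.1% and 11.1%), beside 37.8% of all genes and 29.7% of the 37. By paralogue group, the calls covered 3 of 7 anterior genes (groups 1 to 3), 7 of 14 central genes (groups 4 to 8) and 1 of 16 posterior genes (groups 9 to 13), or 42.9%, 50.0% and 6.25% beside the same 37.8%. No class of so few genes was tested against that share. Of the posterior genes only Hoxd9 and Hoxd11, and none of the Hoxc genes, lay above the low-signal reference in any tissue. A difference between signals so dim is hard to detect, so these shares are limited by low signal. Within Hoxa and Hoxb the genes higher in liver than in brain formed a run, from Hoxa2 to Hoxa5 and, except for Hoxb3, from Hoxb2 to Hoxb6. Both the Hoxa and the Hoxb member of groups 2, 4 and 5 were higher in liver than in brain and in heart than in brain. The Hoxc and Hoxd members of group 4 were measured too and had no call, with liver minus brain at -0.08 for Hoxc4 and -0.09 for Hoxd4.

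**Figure D2:**
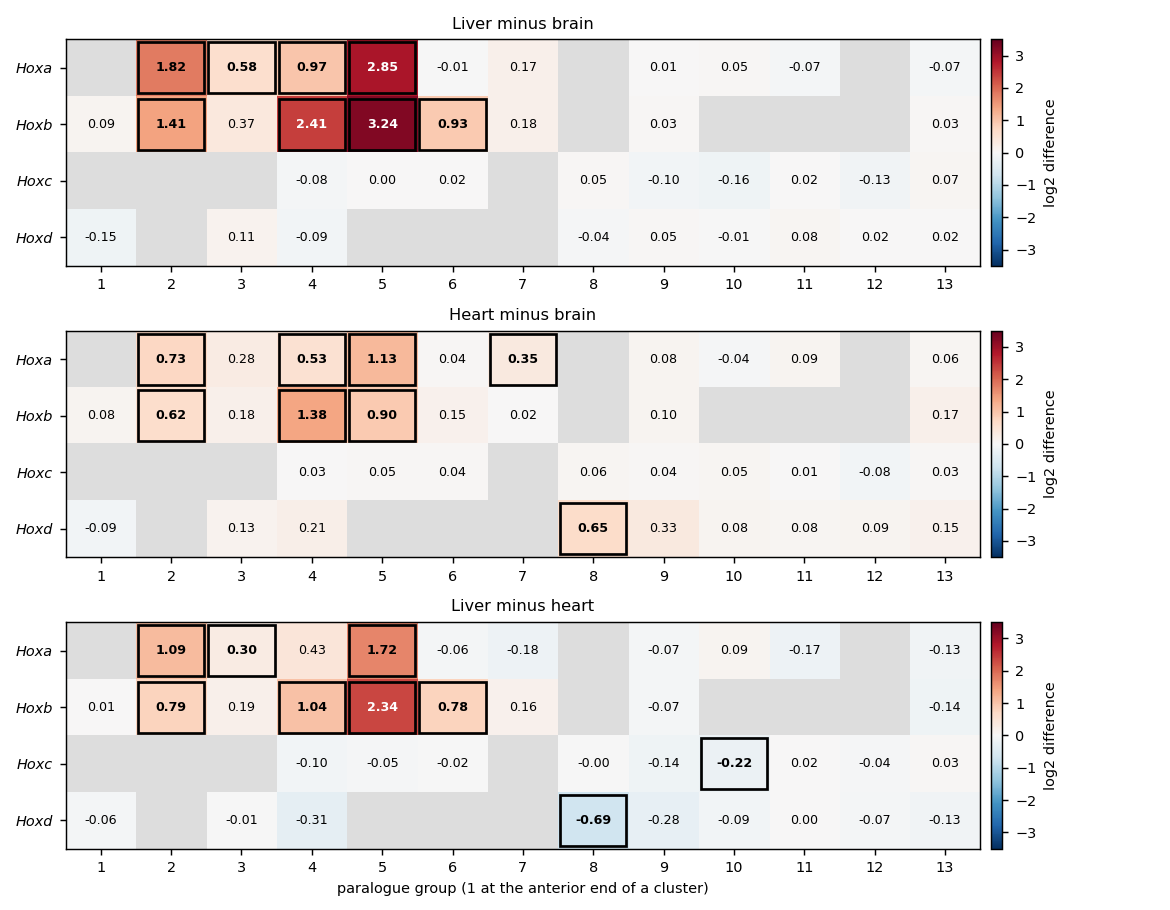
Log2 differences of the 37 measured Hox genes for the 3 comparisons, with clusters in rows and paralogue groups in columns; red is higher in the first-named tissue, blue lower, framed bold values passed an adjusted p of 0.05 in limma, and grey cells hold no measured gene. The framed cells gather in Hoxa and Hoxb at low numbers, up to 3.24 for Hoxb5 between liver and brain, with Hoxd8 framed at 0.65 in heart minus brain and -0.69 in liver minus heart.

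Hoxb5 (probe set 10380641), a trunk Hox gene also known as a marker of blood stem cells, showed the largest measured difference of the family between liver and brain. Its 5 brain arrays read 5.09, 5.61, 5.87, 5.35 and 5.66, its heart arrays 6.07, 6.15, 6.57, 6.78 and 6.56, and its liver arrays 9.29, 8.75, 8.56, 8.68 and 8.53, in the order of replicates 1 to 5. Every heart array lay above every brain array and every liver array above every heart array. Mean and SD over 5 arrays were 5.52 ± 0.30 for brain, 6.42 ± 0.30 for heart and 8.76 ± 0.31 for liver, and later values with ± are of the same kind. Brain lay below its reference. Liver exceeded brain by 3.24 (SE 0.17, at least 8.57-fold, adjusted p = 7.2e-11) and heart by 2.34 (SE 0.17, 5.06-fold, adjusted p = 9.4e-09), and heart exceeded brain by 0.90 (SE 0.17, at least 1.69-fold, adjusted p = 0.00103). In such bulk samples fewer cells that express a gene and less of its RNA per cell cannot be told apart.

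Hoxb4 (probe set 10380648), best known for expanding blood stem cells when supplied in excess, rose over the same order. The brain arrays read 5.86, 5.82, 5.89, 5.65 and 5.89, the heart arrays 7.24, 7.09, 7.14, 7.02 and 7.50, and the liver arrays 8.32, 8.07, 7.91, 8.36 and 8.52. The groups did not overlap, and each step was several times the spread within a tissue. The liver level was above that of brain by 2.41 (SE 0.11, 5.33-fold, adjusted p = 1.3e-11), heart exceeded brain by 1.38 (2.60-fold, adjusted p = 6.6e-08) and liver exceeded heart by 1.04 (2.05-fold, adjusted p = 1.5e-06). The last difference fell to 0.99 without heart replicate 4, to 0.97 without liver replicate 5 and to 0.90 with another quantile normalization, and in each case Hoxb4 no longer met the size set for enrichment in liver.

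Hoxa5 (probe set 10544768), which patterns the neck and chest skeleton and the airways, was the Hoxa gene with the largest measured difference. Brain arrays read 5.09, 5.44, 5.06, 5.04 and 4.64, heart arrays 6.72, 6.17, 5.80, 6.14 and 6.09, and liver arrays 8.76, 8.16, 7.87, 7.27 and 7.46. The groups did not overlap, although the liver arrays spanned a wider range than those of any other gene in the order. The brain mean lay below the reference. Between liver and brain the difference was 2.85 (SE 0.23, at least 4.73-fold, adjusted p = 2.9e-08), heart exceeded brain by 1.13 (at least 1.43-fold, adjusted p = 0.0022) and liver exceeded heart by 1.72 (3.30-fold, adjusted p = 1.9e-05). Without heart replicate 1 the difference of heart from brain was 0.99, and Hoxa5 then missed the size set for depletion in brain.

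Hoxa2 and Hoxb2, which pattern the hindbrain and the pharyngeal arches, moved alike. For Hoxa2 (probe set 10544751) the brain arrays read 4.91, 5.12, 4.69, 5.28 and 5.06, the heart arrays 5.83, 5.63, 5.76, 5.74 and 5.76, and the liver arrays 7.15, 7.03, 6.79, 6.68 and 6.53. The 3 groups of Hoxa2 were separate, and both the brain mean (5.01) and the heart mean (5.74) lay below the low-signal reference. Liver exceeded brain by 1.82 (SE 0.12, at least 2.25-fold, adjusted p = 1.4e-09), heart exceeded brain by 0.73 (adjusted p = 0.00025) and liver exceeded heart by 1.09 (at least 2.10-fold, adjusted p = 1.6e-06). For Hoxb2 (probe set 10380660) the brain arrays read 4.89, 5.75, 5.03, 5.32 and 5.15, the heart arrays 5.93, 5.67, 5.89, 5.91 and 5.87, and the liver arrays 7.26, 6.58, 6.43, 6.41 and 6.51. Brain replicate 2 of Hoxb2 lay above heart replicate 2, and the liver arrays lay above all others. Liver exceeded brain, which lay below the reference, by 1.41 (SE 0.16, at least 1.97-fold, adjusted p = 2.4e-06) and heart by 0.79 (1.72-fold, adjusted p = 0.0013), and heart exceeded brain by 0.62 (at least 1.14-fold, adjusted p = 0.0125). The last call was lost without heart replicates 1 and 3 (0.59, adjusted p = 0.0661).

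The remaining members of the run showed smaller differences. Hoxa4, which helps pattern the neck vertebrae, read 6.96 ± 0.25 in brain, 7.49 ± 0.30 in heart and 7.92 ± 0.37 in liver. It was higher in liver than in brain by 0.97 (adjusted p = 0.00037) and in heart than in brain by 0.53 (adjusted p = 0.0486), while liver minus heart was 0.43 (adjusted p = 0.0782). The difference of heart from brain passed in 13 of 26 alternative analyses. Its adjusted p was 0.117 when heart replicate 4 was left out and 0.113 when brain replicate 1 was. Hoxa3, needed for the thymus and parathyroid, was higher in liver than in brain by 0.58 (adjusted p = 0.00019) and than in heart by 0.30 (adjusted p = 0.0325). That second call passed in 16 of 25 alternatives and had an adjusted p of 0.0824 without liver replicate 5. Hoxb6 was higher in liver than in brain by 0.93 (adjusted p = 1.6e-05) and than in heart by 0.78 (adjusted p = 0.00012). Hoxa3 and Hoxb6 lay below the low-signal reference on average in every tissue, with liver means of 5.35 and 5.61, so their differences are between dim signals.

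**Figure D3:**
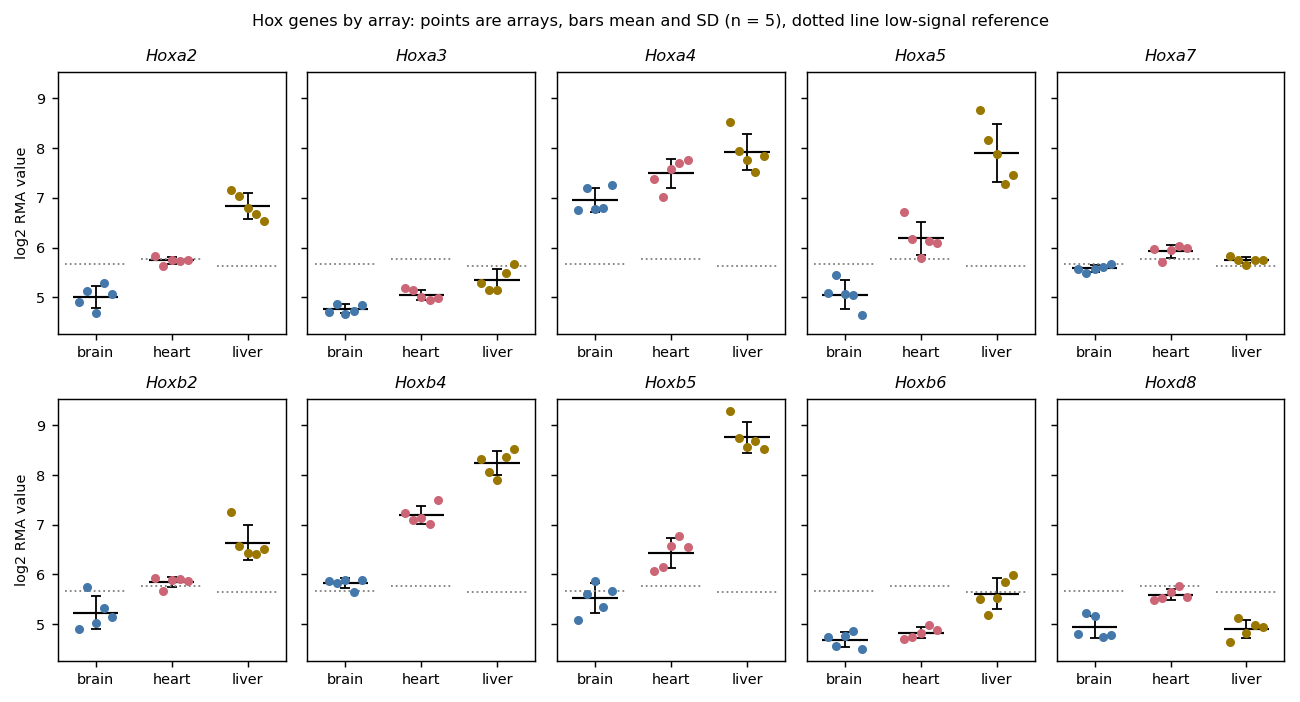
Each array of brain, heart and liver (points) with the mean and SD of 5 arrays (bars) for 10 of the 11 Hox genes with a call, on the log2 RMA scale; dotted lines are the low-signal reference. Hoxa2, Hoxa5, Hoxb4 and Hoxb5 climb from brain to heart to liver without overlap, whereas Hoxd8 is highest in heart (5.59, against 4.94 and 4.91).

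3 called genes did not follow this order. Hoxd8 (probe set 10472965) was higher in heart than in either other tissue. Its brain arrays read 4.81, 5.22, 5.16, 4.74 and 4.79, its heart arrays 5.48, 5.52, 5.66, 5.77 and 5.55, and its liver arrays 4.64, 5.13, 4.82, 4.99 and 4.94. Every heart array lay above every brain and liver array, while the brain and liver arrays overlapped. Heart exceeded brain by 0.65 (SE 0.11, adjusted p = 0.0004) and liver by 0.69 (adjusted p = 0.00013), and liver minus brain was -0.04 (adjusted p = 0.872). All 3 means lay below the low-signal reference. Hoxa7 was higher in heart than in brain by 0.35 (adjusted p = 0.0024), from 5.58 ± 0.06 to 5.93 ± 0.13, with liver at 5.75 ± 0.06. Hoxc10, which helps pattern the lumbar region and hindlimb, was the one posterior gene with a call, lower in liver than in heart by 0.22 (adjusted p = 0.0494). That call passed in 4 of 25 alternatives, had an adjusted p of 0.134 without heart replicate 2, and rests on means of 4.18 to 4.39, which lie below the low-signal reference.

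The other 26 Hox genes had no call. Their differences lay between -0.31 and 0.37, with 95% intervals reaching from -0.57 to 0.66, and a missing call does not show equal levels. Of these, Hoxb1, Hoxb3, Hoxb7 and Hoxd9 are described, picked by the mean signal of their probe sets, which does not rank the genes. Hoxb1, which specifies a segment of the hindbrain, read 6.66 ± 0.10 in brain, 6.75 ± 0.06 in heart and 6.76 ± 0.22 in liver. Hoxb3, which lies inside the run of Hoxb genes, read 6.31 ± 0.15, 6.49 ± 0.10 and 6.68 ± 0.37 in the same order of tissues, and its liver minus brain difference of 0.37 (95% interval 0.07 to 0.66) had an adjusted p of 0.0641. Hoxb7 read 6.15 ± 0.08, 6.17 ± 0.05 and 6.33 ± 0.20. Hoxd9 read 5.75 ± 0.20, 6.08 ± 0.30 and 5.80 ± 0.18, with heart minus brain at 0.33 (adjusted p = 0.124). The probe set shared by Hoxb7 and Hoxb8 read 4.54 ± 0.23, 4.63 ± 0.16 and 4.98 ± 0.15, below the low-signal reference throughout.

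Promoter windows of 250 bases up to the transcription start, from RefSeq on GRCm38.p6, were at hand for 21 of the 37 genes, in 23 windows. Hoxa2, Hoxa5 and Hoxb4 are shown because they carry the order of brain, heart and liver, and Hoxd8 because it was highest in heart. Hoxa2 lies at chr6:52164832-52165081 on the minus strand, Hoxa5 at chr6:52204588-52204837 on the minus strand, Hoxb4 at chr11:96318017-96318266 on the plus strand and Hoxd8 at chr2:74704365-74704614 on the plus strand. Each is written 5′ to 3′ on the strand of the gene, and capitals mark matches on either strand to any of 4 motifs: TGATTNAT, bound by Pbx and Hox proteins together; TGACAG, bound by Meis proteins; AGGTCA, the half-site of retinoic acid receptors; and TATAAA, the TATA box.
Hoxa2: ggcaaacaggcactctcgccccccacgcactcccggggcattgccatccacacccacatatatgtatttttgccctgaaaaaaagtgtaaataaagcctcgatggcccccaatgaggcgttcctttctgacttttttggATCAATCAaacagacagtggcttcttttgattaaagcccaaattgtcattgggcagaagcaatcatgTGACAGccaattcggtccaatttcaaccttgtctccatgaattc
Hoxa5: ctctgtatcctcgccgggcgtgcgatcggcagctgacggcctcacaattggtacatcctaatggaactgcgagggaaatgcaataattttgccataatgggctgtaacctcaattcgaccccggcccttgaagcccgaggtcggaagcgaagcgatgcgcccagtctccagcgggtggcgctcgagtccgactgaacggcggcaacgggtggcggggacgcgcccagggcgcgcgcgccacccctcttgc
Hoxb4: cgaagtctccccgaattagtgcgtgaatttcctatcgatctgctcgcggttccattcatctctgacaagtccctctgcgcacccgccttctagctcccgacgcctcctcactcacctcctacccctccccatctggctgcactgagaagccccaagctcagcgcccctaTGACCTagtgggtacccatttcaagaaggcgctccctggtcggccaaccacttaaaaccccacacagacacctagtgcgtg
Hoxd8: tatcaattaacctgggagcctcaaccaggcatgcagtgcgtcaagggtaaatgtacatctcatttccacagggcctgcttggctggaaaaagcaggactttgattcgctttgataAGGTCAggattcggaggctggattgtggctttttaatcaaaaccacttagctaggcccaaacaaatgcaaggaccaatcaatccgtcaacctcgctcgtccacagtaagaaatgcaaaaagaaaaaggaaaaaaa

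In the Hoxa2 window ATCAATCA, a match to the reverse complement of the Pbx and Hox motif, starts 111 bases before the start site. TGACAG starts 44 bases before it. The Hoxb4 window holds TGACCT, the reverse complement of the retinoic acid receptor half-site, 81 bases before the start. The Hoxd8 window holds AGGTCA 135 bases before it. No match overlapped another in these 4 windows. Hoxa5 shows none of these letters in its window. Over the 23 Hox windows, TGATTNAT was found in 2, TGACAG in 2, AGGTCA in 6 and TATAAA in 3. Over all 32851 windows of the same length the shares were 2.83%, 15.9%, 14.0% and 12.4%. The Hox windows were richer in CpG, with a median of 13 CpG against 6 over all windows and a GC content of 59.2% against 52.4%. Such matches describe letters and were not tested as binding sites.

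Hox proteins bind DNA together with cofactors of the TALE family, the Pbx, Meis and Pknox proteins. Of the 8 analysed here, 3 were higher and 1 lower in liver than in brain, 2 were higher and 2 lower in heart than in brain, and 3 were higher in liver than in heart. For this and the following lists, the shares of all genes called higher and lower are 14.0% and 11.1% for liver minus brain, 7.11% and 8.29% for heart minus brain, and 16.3% and 11.5% for liver minus heart. Meis1 followed the same order as the Hox genes. It read 5.88, 5.55, 5.83, 5.63 and 5.26 in brain, 7.35, 7.22, 7.30, 7.51 and 7.35 in heart, and 9.24, 9.19, 9.43, 9.44 and 9.39 in liver, with no overlap between tissues. From brain to liver Meis1 rose by 3.71 (SE 0.11, at least 12.8-fold, adjusted p = 1.4e-14), heart exceeded brain by 1.71 (at least 3.20-fold, adjusted p = 1.4e-09) and liver exceeded heart by 1.99 (3.98-fold, adjusted p = 1.1e-10).

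Meis2 was raised in liver alone. Its brain arrays lay between 4.71 and 5.69 and its heart arrays between 5.10 and 5.96, and these overlapped, while its liver arrays lay between 10.31 and 10.52. The brain and heart means lay below the reference. The liver mean was 5.33 above brain (SE 0.17, at least 27.2-fold, adjusted p = 6.8e-14) and 4.88 above heart (at least 25.4-fold, adjusted p = 4.2e-13), and heart minus brain was 0.46 (adjusted p = 0.0895). Pknox1 was higher in liver and heart than in brain, by 0.40 and 0.46, and Pknox2 lower, by 0.40 and 0.48. Pbx2 was lowest in heart, by 0.51 against brain and 0.71 against liver. The Pknox2 call in liver against brain was lost without liver replicates 1, 3 and 4 (adjusted p = 0.536), as was the Pbx2 call in liver against heart (adjusted p = 0.0585).

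**Figure D4:**
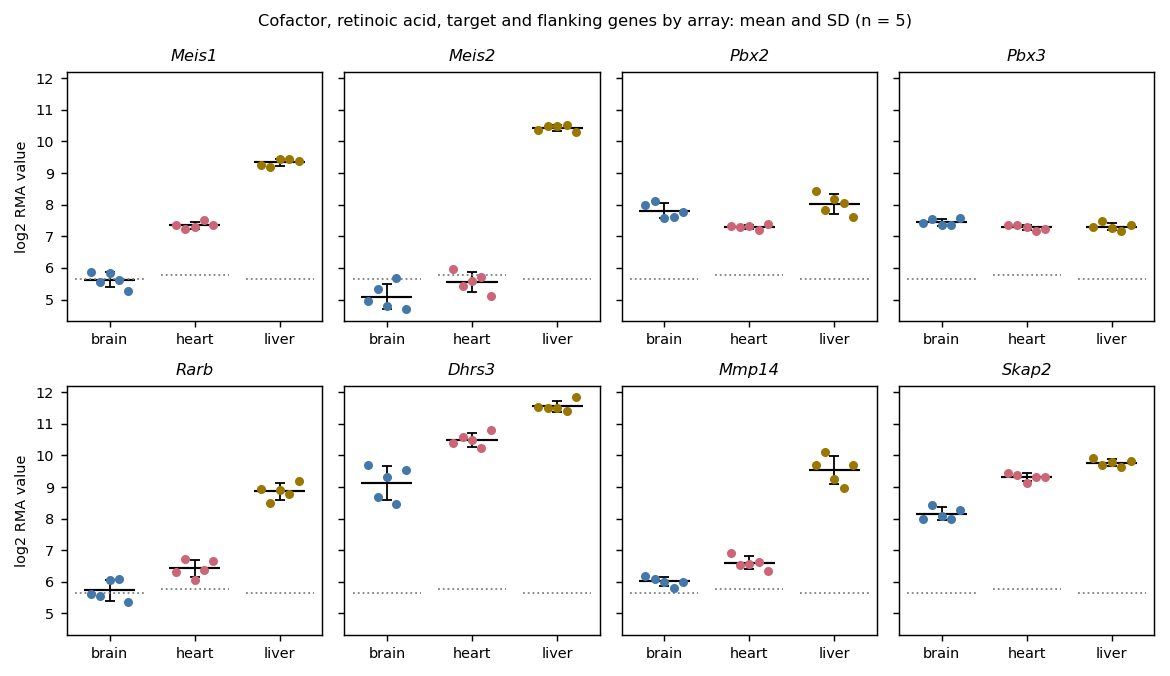
Array values (points) with mean and SD of 5 arrays (bars) for TALE cofactors, retinoic acid genes, the endothelial target Mmp14 and Skap2, which flanks the Hoxa cluster, on the log2 RMA scale with the low-signal reference dotted. Meis1, Rarb, Dhrs3, Mmp14 and Skap2 have their lowest means in brain and their highest in liver, and Meis2 lies at 10.43 in liver against 5.10 and 5.55.

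Retinoic acid switches on Hox genes with low numbers in the embryo, through receptors of the Rar and Rxr families. Of 17 genes of its supply, reception and removal, 5 were higher and 2 lower in liver than in brain, 3 were higher and 2 lower in heart than in brain, and 3 were higher and 1 lower in liver than in heart. The 5 higher in liver than in brain are 29.4% of the list, beside 14.0% of all genes, while the 3 higher in liver than in heart, 17.6%, are near the 16.3% of all genes. Rarb, a receptor that is itself a direct target of retinoic acid, read 5.61, 5.54, 6.06, 6.09 and 5.35 in brain, 6.32, 6.72, 6.06, 6.37 and 6.67 in heart, and 8.95, 8.49, 8.92, 8.77 and 9.20 in liver. Liver lay above both other tissues without overlap, whereas the lowest heart array fell among the brain arrays. Liver exceeded brain by 3.13 (8.78-fold, adjusted p = 5.5e-11) and heart by 2.44 (5.41-fold, adjusted p = 2.5e-09), and heart exceeded brain by 0.70 (1.62-fold, adjusted p = 0.0058). Dhrs3, which returns retinal to retinol and is induced by retinoic acid, rose in the same order from 9.14 ± 0.54 to 10.50 ± 0.22 and 11.55 ± 0.17, with all 3 differences called. 2 genes of the list ran the other way. Aldh1a1, which makes retinoic acid from retinal, was higher in brain than in liver (10.4-fold) and heart (10.9-fold), and Stra6, a receptor that takes up retinol, was higher in brain than in liver (3.72-fold) and heart (3.21-fold).

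Endothelial genes named in earlier work as targets of Hox factors were mixed. Of 13, 7 were higher and 3 lower in liver than in brain, 6 were higher and 1 lower in heart than in brain, and 4 were higher and 2 lower in liver than in heart. Mmp14, a membrane-bound matrix protease, read 6.02 ± 0.15 in brain, 6.60 ± 0.21 in heart and 9.55 ± 0.45 in liver, so that liver exceeded brain 11.5-fold and heart 7.71-fold. Its difference of heart from brain, 0.58, lost its call without heart replicates 1 and 3 (adjusted p = 0.126). Ephb4, a venous guidance receptor, rose from 7.63 ± 0.13 to 8.13 ± 0.14 and 8.93 ± 0.14, with all 3 differences called. Plau, the urokinase protease, was higher than in brain by 1.12 in heart (at least 1.25-fold) and 0.97 in liver (at least 1.13-fold). Its brain mean lay below the reference. The integrin subunit Itgb3 was higher in liver by 0.99 against brain and 0.76 against heart. Members whose order was the reverse were present as well, among them Nos3. Its arrays read 8.25 to 8.68 in brain, 7.74 to 8.06 in heart and 7.25 to 7.60 in liver, without overlap. The list's median difference was 0.44 for liver minus brain and 0.27 for heart minus brain, but -0.03 for liver minus heart.

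Chromatin proteins that hold Hox clusters silent or active changed in both directions. Of 27 Polycomb genes, whose products keep Hox genes off, 5 were lower in liver than in brain and 5 lower in heart than in brain; in liver against heart 2 were higher and 3 lower. The genes lower than in brain are 18.5% of the list in either tissue, beside 11.1% and 8.29% of all genes, and the counts of liver against heart, 7.41% and 11.1%, do not exceed 16.3% and 11.5%. Phc1 and Scmh1, both subunits of Polycomb repressive complex 1, were higher in brain, Phc1 by 1.03 against liver and 0.93 against heart and Scmh1 by 0.61 and 0.62. Pcgf1 was lowest in heart, by 0.81 against brain and 1.35 against liver, and Rnf2 was higher in liver than in heart by 0.48. The Pcgf1 call against brain passed in 10 of 26 alternatives, with adjusted p up to 0.298, and its heart mean lay below the reference. The Rnf2 difference was 0.29 without liver replicates 1, 3 and 4 (adjusted p = 0.212). Of 15 genes of the trithorax group and H3K27 demethylases, which keep Hox genes on, 1 was higher and 4 lower in liver than in brain, 2 were lower in heart than in brain, and 3 were higher and 5 lower in liver than in heart. The lower genes are 26.7%, 13.3% and 33.3% of the list, beside 11.1%, 8.29% and 11.5% of all genes. Mllt3, part of the complex that recruits Dot1l, fell from 9.76 ± 0.12 in brain to 8.04 ± 0.09 in heart and 7.10 ± 0.18 in liver. The demethylase gene Kdm6a was lower in liver than in brain by 0.97 and than in heart by 0.63, the methyltransferase gene Kmt2c by 0.52 and 0.49, and Wdr5 was higher in liver by 0.73 and 0.70. With liver replicates 2 and 5 alone the Wdr5 differences were 0.39 and 0.37 (adjusted p = 0.0765 and 0.0992), and that of Kdm6a from heart was -0.58, near its full value but without a call (adjusted p = 0.118).

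The genome around the clusters gave further values. Among 15 genes flanking the Hox clusters, 2 were higher and 3 lower in liver than in brain, 2 were higher in heart than in brain, and 2 were higher and 2 lower in liver than in heart. The 2 of 15 higher in liver than in brain are 13.3%, near the 14.0% of all genes. Skap2, a neighbour of the Hoxa cluster and a signalling adaptor, read 8.16 ± 0.20 in brain, 9.32 ± 0.11 in heart and 9.76 ± 0.11 in liver, with no overlap and all 3 differences called (1.61, 1.16 and 0.44 for liver minus brain, heart minus brain and liver minus heart). Snx10, next beyond Skap2, was higher in heart than in brain by 0.48 and lower in liver than in heart by 0.79. Hibadh, near the opposite end of the Hoxa cluster, was higher in liver than in brain by 0.49 and than in heart by 0.45, and Mtx2, next to Hoxd1, was lower in liver than in brain by 0.56. The Hibadh calls were lost when all probe sets of the gene were averaged (0.20 and 0.14). Among 10 noncoding RNA genes of the clusters, Hoxd3os1 had, like Hoxd8, its highest mean in heart. It was higher in heart than in brain by 0.48 (adjusted p = 0.0359) and lower in liver than in heart by 0.69 (adjusted p = 0.0018). Hoxd3os1 stayed under the low-signal reference on average in every tissue, so its differences are between dim signals. Its call against brain was lost when brain replicate 1 (adjusted p = 0.0927) or heart replicate 3 (adjusted p = 0.099) was left out. Mir615, which lies in the Hoxc cluster, was lower in liver than in heart by 0.29, a call lost without liver replicates 1, 3 and 4 (adjusted p = 0.397).

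Homeobox genes related to Hox and other regional factors showed tissue patterns of their own. Of 13 Hox-related homeobox genes outside the clusters, Meox2 read 9.24 ± 0.05 in heart, while brain had 4.13 ± 0.21 and liver 4.29 ± 0.19, and Meox1 read 8.66 ± 0.35 in heart, 7.45 ± 0.18 in brain and 5.62 ± 0.27 in liver. Of 21 head and brain regional factors, 4 were lower in liver than in brain and 4 in heart than in brain, among them Zic2 (by 1.81 and 1.82), Otx2 (by 0.55 and 0.52) and Zic1 (by 0.47 and 0.54). Otx2 and Zic1 lay below the low-signal reference in every tissue. Brain replicate 1 had the highest Otx2 value, 5.58, and without it the differences fell to -0.36 and -0.33. The Otx2 calls passed in 23 and 19 of 25 alternatives and the Zic1 calls in 23 and 24 of 25. Irx3 was lower in liver than in heart by 0.36, a call that passed in 20 of 26 alternatives and was lost when heart replicate 3 (adjusted p = 0.072) or liver replicate 3 (adjusted p = 0.0663) was left out. Of 21 heart and trunk regional factors, Foxf1 was higher in brain by 4.76 against liver and 4.30 against heart (with its probe sets averaged, liver minus brain was -2.89 and heart minus brain -2.52), Gata4 was higher in liver than in brain (6.66-fold) and heart (5.19-fold), Wt1 was higher in heart by 2.55 against brain and 2.48 against liver, and Tbx3 fell by 2.94 from brain to liver and by 2.65 from heart to liver.

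Several lists of markers of other cells moved with the tissues. The means per array of 11 macrophage and Kupffer cell genes were 5.18 to 5.36 in brain, 5.24 to 5.48 in heart and 5.63 to 8.58 in liver, where replicates 1, 3 and 4 read 8.02, 8.58 and 8.21 and replicates 2 and 5 read 6.00 and 5.63; 4, 2 and 11 of the 11 genes lay above the low-signal reference in brain, heart and liver. The means of 10 hepatocyte genes were 6.05 to 6.22, 5.13 to 5.34 and 7.35 to 8.14 (5, 3 and 10 genes above the reference), those of 8 hepatic stellate cell genes 5.70 to 5.85, 5.71 to 5.93 and 6.27 to 6.72 (3, 4 and 5 genes), and those of 11 blood progenitor genes 5.41 to 5.56, 5.67 to 5.80 and 5.97 to 6.21 (3, 3 and 6 genes). In heart, 12 cardiomyocyte genes had means of 7.88 to 9.46, while brain had 5.81 to 5.96 and liver 5.50 to 5.72 (11, 6 and 5 genes), and those of 11 fibroblast genes 6.41 to 7.50, against 5.55 to 5.95 and 5.44 to 5.83 (11, 7 and 4 genes). The 12 pericyte and smooth muscle genes read 6.18 to 7.85 in brain, 6.68 to 8.02 in heart and 6.05 to 6.19 in liver (10, 11 and 7 genes). The means of 9 neuron genes were 5.33 to 5.41 in brain, 5.25 to 5.45 in heart and 4.61 to 5.01 in liver. Those of 7 astrocyte genes were 5.74 to 6.04, 5.75 to 5.93 and 5.68 to 5.84. Those of 5 oligodendrocyte genes were 5.48 to 5.65, 5.58 to 5.77 and 5.66 to 5.89. In each neural list the brain arrays overlapped those of heart. Medians over arrays were 5.70, 6.15 and 5.74 for mesothelial and 4.62, 4.73 and 5.15 for lymphoid genes. A list mean can rise through some of its members. Of the stellate genes 4 of 8 (50.0%) were called higher in liver than in brain, beside 14.0% of all genes. Of the blood progenitor genes 3 of 11 (27.3%) were. The median difference of liver minus brain was 0.23 over the stellate list and 0.05 over the blood progenitor list.

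The differences were also computed without the arrays highest in macrophage or cardiomyocyte markers. Without liver replicates 1, 3 and 4, a choice made after seeing the data that leaves the liver arrays with the lowest macrophage means and the highest hepatocyte means (7.74 and 8.14), liver minus brain was 3.12 for Hoxb5, 2.47 for Hoxb4, 2.75 for Hoxa5, 1.77 for Hoxa2 and 1.32 for Hoxb2, and the same 5 genes kept all 3 calls. Meis1 then differed by 3.66 and Meis2 by 5.31. Without heart replicates 1 and 3, which had the highest cardiomyocyte markers, heart minus brain was 0.98 for Hoxb5, 1.38 for Hoxb4, 1.08 for Hoxa5, 0.69 for Hoxa2 and 0.67 for Hoxd8, all still called, while Hoxb2 (0.59, adjusted p = 0.0661) and Hoxa4 (0.54, adjusted p = 0.121) lost their calls. Of the 8 Hox genes higher in heart than in brain 6 remained, and the order held for 4 genes in place of 5. After these removals the liver arrays still had macrophage means of 6.00 and 5.63, above every brain and heart array. The heart arrays left had cardiomyocyte means of 7.88 to 8.53, above every brain array. The part of macrophage, cardiomyocyte, hepatocyte, stellate, blood progenitor, fibroblast and pericyte RNA in the Hox differences was not tested.

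**Figure D5:**
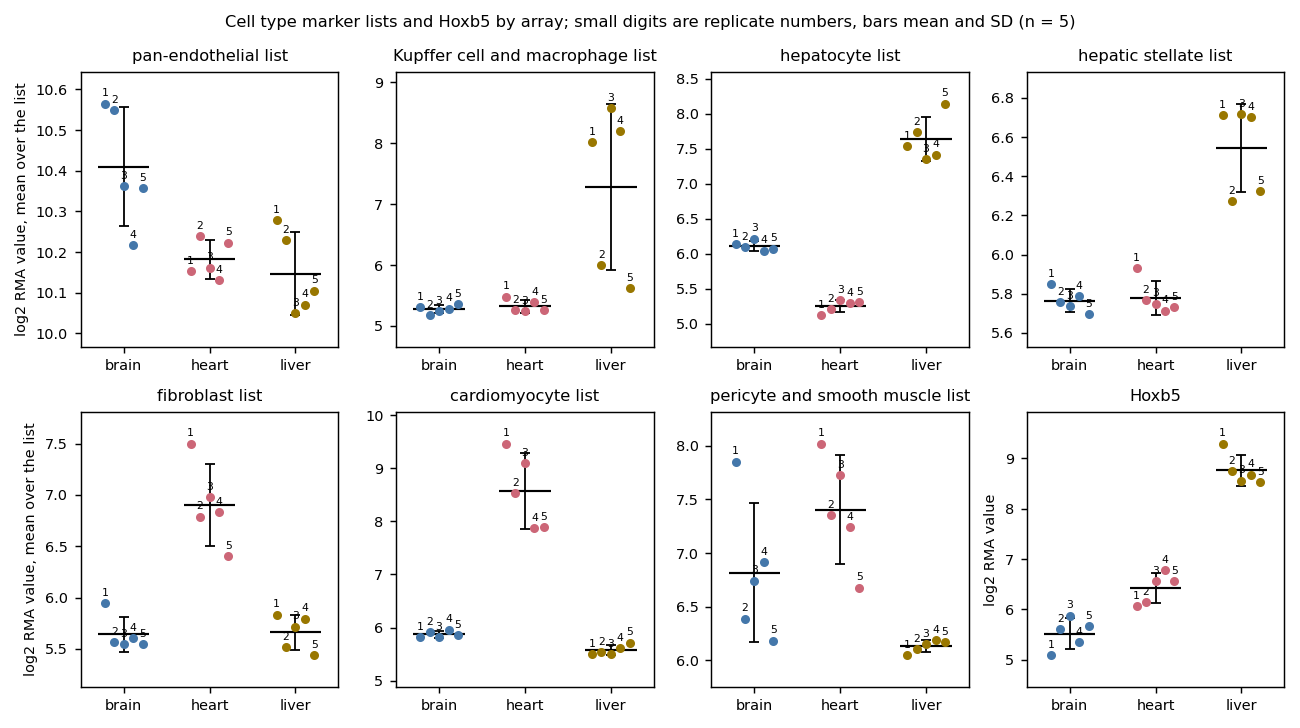
Mean log2 RMA value per array of 7 cell type marker lists, with Hoxb5 for comparison; digits are replicate numbers and bars the mean and SD of 5 arrays. In liver, replicates 2 and 5 have the lowest macrophage means (6.00 and 5.63) and the highest hepatocyte means (7.74 and 8.14), and Hoxb5 spans 8.53 to 9.29 over the 5 arrays.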

How the data were processed

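Per the labels' protocols, 5 ng of total RNA per sample of sorted GFP-positive cells was amplified to biotin-labelled cDNA for an Affymetrix mouse gene array. The values, log2 as deposited, cover 35556 probe sets on 15 arrays and were made with RMA and Affymetrix Power Tools per the submitters' processing notes. The versions and the genome build were not given in the sources used here. Of 23410 annotated probe sets, 21789 carried 1 gene symbol, 1621 several and 12146 further probe sets were unnamed; 21698 symbols matched RefSeq (GRCm38.p6) and 0 changed. For 999 genes with several probe sets the one with the highest mean was kept.

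One mean per tissue was fitted over the 15 arrays with limma 3.58.1 (lmFit, eBayes) in R 4.3.3, with 12 residual degrees of freedom, and Benjamini-Hochberg adjustment over 19938 genes in each of 3 contrasts. The fit was tested on simulated data. The precision is limited by 5 arrays per tissue, and scanner files were not used here.

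The members and gene lists were chosen with earlier results of these data known. Named were Hoxb5, every Hox gene with a call (per array where a called difference reached 1), the 4 highest of the others, all TALE cofactors with a call, and per list up to 4 genes with the largest called difference. The order brain, heart, liver and the per-array values of Hoxd8 were chosen after the values had been seen. So was Nos3, which is left out of the counts over named genes. Alternatives were another summary of probe sets, 3 other scalings, a filter on dim genes, another variance prior, fits of 2 tissues, a replicate block, array weights and leaving out arrays.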

Additional observations from a re-analysis of the deposited data

Results flagged for a closer look

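In groups of 5 arrays, a value was singled out when its gap to the nearest other array exceeded 0.71 of the group's range (Dixon's 95% critical value for 5 values). Chance singles out about 1 in 20 groups where values are normally spread and without ties. Some Hox groups held ties, such as Hoxc8 in liver, where all arrays but replicate 2 read 5.31, so that rate is a rough guide. Among the Hox genes such a value occurred in 19 of 111 groups, and 7 of the 19 were liver replicate 1. In that array 2 genes lay above the other liver arrays, Hoxb5 at 9.29 (others 8.53 to 8.75) and Hoxb2 at 7.26 (others 6.41 to 6.58). The other 5 lay below them, Hoxa9 at 5.02, Hoxc6 at 4.16, Hoxc9 at 4.76, Hoxd4 at 4.15 and Hoxd13 at 4.83.

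Of the remaining Hox values, those below the rest of their tissue were Hoxa6 at 5.67 in liver replicate 3, Hoxa7 at 5.70 and Hoxb2 at 5.67 in heart replicate 2, Hoxb4 at 5.65 in brain replicate 4 and Hoxd10 at 4.98 in brain replicate 3. Those above it were Hoxa11 at 5.03 in heart replicate 5, Hoxc5 at 4.37 in heart replicate 3, Hoxc8 at 5.42 and Hoxc11 at 4.15 in liver replicate 2, Hoxc10 at 4.49 in brain replicate 5 and at 4.65 in heart replicate 2, and Hoxc12 at 5.33 in brain replicate 1. Among the other genes named, 4 of 111 groups held such a value: Otx2 at 5.58 in brain replicate 1, Foxf1 at 6.89 in heart replicate 1, Mtx2 at 5.79 and Hibadh at 7.49 in liver replicate 2.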

How the results depend on the processing

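The called Hox differences kept their direction in 643 of 643 alternative values. Of these, 599 also kept their call and 44 lost it, namely of Hoxa3, Hoxa4, Hoxb2 and Hoxc10. The direction was partly fixed in advance. A replicate block, another variance prior, fits of 2 tissues and the filter on dim genes cannot change the difference of any gene. Nor can leaving out arrays of the third tissue or, for Hox genes with 1 probe set each, averaging probe sets. For the other named genes 1968 of 2048 kept their call, 80 lost it and 0 reversed. The 2 Hox genes lower in liver than in heart became 1 with arrays centred on their median or on the pan-endothelial list, with another quantile normalization, in fits of 2 tissues, with array weights, without heart replicates 1 and 3 and without liver replicates 1, 3 and 4, and 0 with the filter on dim genes; leaving out single arrays gave 1 to 3. Centring on the pan-endothelial list gave 17 Hox genes higher in liver and 16 higher in heart than in brain, with the 8 and 8 reported genes among them; it moved the median of all genes by 0.26 and 0.23, and all genes then split into 8073 higher and 1181 lower for liver minus brain and 6471 and 888 for heart minus brain, against 2799 and 2204 and 1418 and 1652 as reported. Leaving out single arrays gave 8 to 9 Hox genes higher in liver than in brain, 7 to 9 higher in heart than in brain, 6 to 7 higher in liver than in heart, 3 to 4 enriched in liver and 1 to 2 depleted in brain. Outside the family centring on the pan-endothelial list ended calls of Pbx2, Pknox2, Pcgf1, Kmt2c, Otx2, Zic1, Irx3, Mir615 and Mtx2. The cause of these changes was not tested.

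The Hox genes above the low-signal reference numbered 2, 3 and 8 in brain, heart and liver with the 99th percentile, 21, 22 and 24 with vomeronasal and taste receptor genes, and 7 in heart when every array had to pass.

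Same-numbered arrays share only a number by the labels. Of 15 pairs of deviations, 6 correlated above 0.1 (from -5e-04 to 0.204). Among the arrays of the other tissues, 12 of 15 arrays correlated best with one of their own number. The main fit had no term for this link, and its source was not tested. With the replicate block 9 Hox genes were higher in liver than in brain and 7 in heart than in brain, and 2 calls were lost, Hoxa4 in heart against brain (adjusted p = 0.0697) and Hoxc10 in liver against heart (adjusted p = 0.0667).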
